A study of Homo sapiens with 4 samples.

Results

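The 37 genes that encode the cleavage and polyadenylation factors, the transcription termination factors and the subunits of the Integrator complex were examined in RNA-seq libraries from cells labelled NB4. They were chosen by name, as complexes that act at the ends of transcripts, and all 37 were found by Ensembl identifier among the 58735 genes listed. NB4 is the name of a human line established from acute promyelocytic leukemia. There were 4 libraries, 2 from untreated control cells and 2 from cells treated with GNE987, and all came from the same named line with no genetic change. GNE987 is a bifunctional degrader, which joins a target protein to a ubiquitin ligase. The dose of 25 nM and the time of 24 h come from the legend of a figure in the study, since the labels give the treatment only. The labels do not say whether the libraries came from separate cultures, so every P value here measures the spread between these libraries, which may be technical.

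Most messenger RNAs are ended by a machine that cuts the nascent transcript downstream of the poly(A) signal and adds a poly(A) tail. The cut leaves an uncapped RNA on RNA polymerase II, which an exonuclease degrades until the polymerase is released. Integrator is a separate complex with a related nuclease and a bound phosphatase, which ends the transcripts of small nuclear RNA genes and of many polymerases paused near promoters.

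The control libraries held 19483584 and 19287274 reads on genes and the GNE987 libraries 12420751 and 12927103. Levels are FPKM, the fragments of a gene divided by its length and by a factor for the library. The library scaling was not the total of reads, because the divisor behind the deposited values was 1.18 and 1.15 times the sum of reads for the control libraries but 0.673 and 0.683 times for the GNE987 libraries. Directions below are those of the deposited scaling. For the genes described singly, other than neighbouring genes, a turn under scaling to total reads or to GAPDH is given beside the gene. The labelled cell type was checked against marker genes. Without GNE987 the summed FPKM of 6 erythroid markers was 273 and 282 and that of 5 promyelocyte and granulocyte markers 2.44 and 2.81, with ELANE and CTSG at 0 and MPO at 0.0246 and 0. In the GNE987 libraries the sums were 287 and 241 for the erythroid markers and 25.6 and 23.4 for the promyelocyte and granulocyte markers. The summed FPKM of 3 megakaryocyte markers went from 1.39 and 1.41 to 6.19 and 6.80, with PF4 at 0, and that of 3 lymphoid markers from 0.849 and 0.950 to 0.307 and 0.697. The erythroid factor GATA1 was at 124 and 122 FPKM without GNE987 and at 15.1 and 12.5 with it. These markers go against the labelled line, so the libraries are called by their label and treatment only. The part of the marker shift in the results below was not tested, and in bulk RNA fewer cells of a type cannot be told apart from less RNA per cell.

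All 37 genes passed the filter of a mean of at least 0.5 FPKM. A gene was called higher or lower when limma on log2(FPKM + 0.1) over all 16668 genes tested gave both a P value under 0.05 before adjustment and a change of more than 2-fold in either direction. On this scale fold changes of low genes are understated. With GNE987, 4 of the 37 genes rose (10.8%), where 33.6% of all genes tested and 24% of the protein-coding genes tested rose. In the other direction 15 of the 37 fell (40.5%), where 24.9% of all genes tested and 31.7% of the protein-coding genes tested fell. The other 18 passed neither call. The median log2 fold change was -0.85 over the 37 genes, -0.29 over the 10996 protein-coding genes tested and 0.17 over all genes tested. After Benjamini-Hochberg adjustment over all genes tested, 33 of the 37 had an adjusted P value under 0.05, 24 of them below 0 and 9 above. The share of all genes tested under that adjusted P value was not counted, so this count sets the 37 genes apart from no background.

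The split between higher and lower depended on how the libraries were scaled. When each library was scaled to its total of reads on genes, 1 of the 37 genes rose and 24 fell, where 25% of all genes tested rose and 39.8% fell. The median over all genes tested then moved from 0.17 to -0.56, and that of the 37 genes to -1.61. When each library was scaled to GAPDH, none rose and 33 fell, where 18% and 58.2% of all genes tested did so. The shares of the protein-coding genes alone, which fell more often under the deposited scaling, were not counted under either scaling. GAPDH itself was at 398 and 432 FPKM without GNE987 and at 1501 and 1499 with it, and it rose by 1.85 on the log2 scale (adjusted P = 0.00018). Counted from the median of all genes tested under the deposited scaling, the 37 genes had a median of -1.03. Counted from the lower median of the protein-coding genes tested, -0.29, the distance is smaller.

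**Figure D1:**
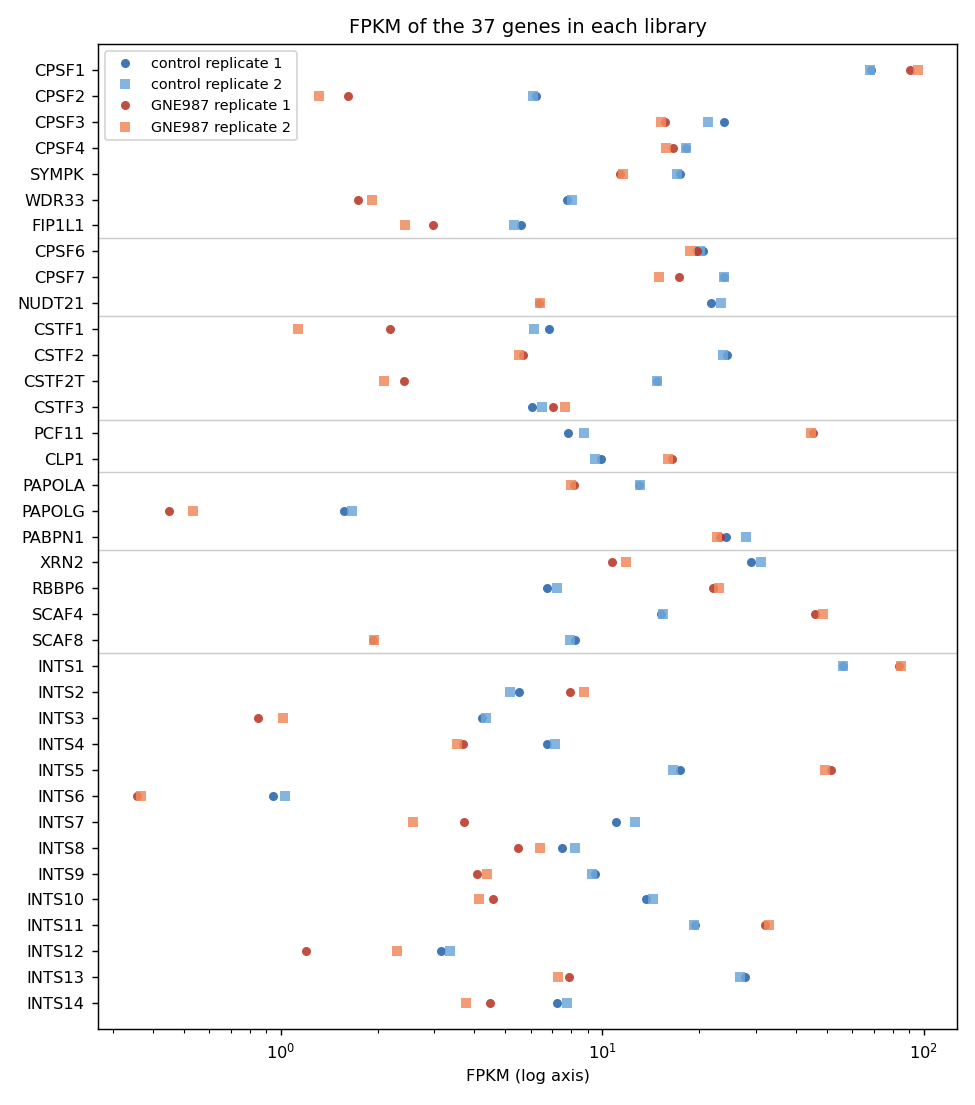
FPKM of each of the 37 genes in each of the 4 libraries on a log axis, with control libraries in blue, GNE987 libraries in red and orange, and gray lines between the groups of genes by role. CPSF1 and INTS1 were the highest of the 37 in every library and INTS6 the lowest, and PCF11 lay at 45.1 and 44.5 FPKM in the GNE987 libraries against 7.84 and 8.75 in the control libraries.

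The strongest rise was that of PCF11, a subunit of cleavage factor II that binds the tail of RNA polymerase II and promotes termination (ENSG00000165494, chr11:83156988-83187451 on GRCh38, plus strand). It was at 7.84 and 8.75 FPKM without GNE987 and at 45.1 and 44.5 with it. Both GNE987 libraries lay above both control libraries. In each of the 37 genes the 2 groups of libraries did not overlap, so this sets no gene apart. CPSF6, with a limma adjusted P value of 0.233, was among them. The share of all genes tested without overlap was not counted. The log2 fold change was 2.42 (SE 0.0724, adjusted P = 0.000176), a 5.36-fold rise, and 2.25 above the median of all genes tested. Of all genes tested 78.3% had a lower log2 fold change, so many genes outside the 37 rose more. Behind these values were 1796 and 1926 control reads against 3752 and 3907 reads from the less deep GNE987 libraries. The rise was 1.64 with scaling to total reads, the one call of the 4 that held, and 0.57 with scaling to GAPDH, under the fold threshold. Among the 37 genes PCF11 ranked 23rd and 22nd in the control libraries and 5th in both GNE987 libraries. CLP1, the RNA kinase that partners PCF11 in cleavage factor II, was at 9.94 and 9.48 FPKM without GNE987 and at 16.5 and 16.0 with it. Its log2 fold change of 0.74 (SE 0.0576, adjusted P = 0.000938) stayed under the fold threshold and was -0.038 with scaling to total reads.

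RBBP6, a RING finger protein that activates the cleavage complex, was at 6.75 and 7.24 FPKM without GNE987 and at 22.0 and 23.1 with it. The log2 fold change was 1.68 (SE 0.066, adjusted P = 0.000241). It was 0.90 with scaling to total reads and -0.16 with scaling to GAPDH. In the opposite direction, the largest fall was that of CSTF2T, an intronless copy of CSTF2 that like it binds RNA downstream of the cut. It was at 14.8 FPKM in both libraries without GNE987 and at 2.42 and 2.10 with it. The gene fell by 2.66 on the log2 scale (SE 0.0963, adjusted P = 0.000214), a 6.34-fold difference that was larger with scaling to total reads.

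The promoters of PCF11 and RBBP6, the largest rises, and of CSTF2T, the largest fall, are given so that the sequence around the start sites can be read beside these values. They hold 250 bases before and 50 after the RefSeq start on GRCh38.p14, 5′ to 3′ on the strand of the gene. PCF11 is at chr11:83156881-83157180 (plus strand), RBBP6 at chr16:24539316-24539615 (plus strand) and CSTF2T at chr10:51699546-51699845 (minus strand). Capitals mark matches on either strand to 5 short motifs, the cyclic AMP response element TGACGTCA, the E-box CACGTG, the GC box GGGCGG, the CCAAT box CCAAT and the TATA box TATAAA.
PCF11: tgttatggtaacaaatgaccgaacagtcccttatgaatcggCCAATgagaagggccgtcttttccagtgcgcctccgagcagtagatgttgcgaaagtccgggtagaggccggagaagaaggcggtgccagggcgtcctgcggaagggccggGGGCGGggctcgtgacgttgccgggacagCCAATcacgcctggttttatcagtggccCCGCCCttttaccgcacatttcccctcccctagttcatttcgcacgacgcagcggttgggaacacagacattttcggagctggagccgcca
RBBP6: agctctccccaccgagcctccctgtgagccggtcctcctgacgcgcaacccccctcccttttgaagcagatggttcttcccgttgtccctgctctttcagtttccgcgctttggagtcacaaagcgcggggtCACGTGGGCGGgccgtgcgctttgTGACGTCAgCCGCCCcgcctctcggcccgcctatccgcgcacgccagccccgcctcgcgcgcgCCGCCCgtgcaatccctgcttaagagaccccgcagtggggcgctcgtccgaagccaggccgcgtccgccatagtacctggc
CSTF2T: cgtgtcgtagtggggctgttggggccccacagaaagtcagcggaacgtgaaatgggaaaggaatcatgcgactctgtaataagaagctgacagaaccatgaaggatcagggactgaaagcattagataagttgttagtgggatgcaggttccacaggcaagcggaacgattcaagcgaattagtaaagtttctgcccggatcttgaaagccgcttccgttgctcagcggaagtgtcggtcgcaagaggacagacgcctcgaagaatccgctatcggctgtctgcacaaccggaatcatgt
The PCF11 promoter held 2 GC boxes and 2 CCAAT boxes. The RBBP6 promoter held 1 cyclic AMP response element, 1 E-box and 3 GC boxes, and the E-box and a GC box shared bases. The CSTF2T promoter held none of the 5 motifs and had a GC content of 51.3%, against 59.3% for PCF11 and 68.7% for RBBP6. RefSeq promoters were matched for 31 of the 37 genes, those other than CPSF1, INTS5, INTS8, INTS9, INTS10 and SCAF4. For each of the 31 the first listed promoter was taken, while the shares over all promoters count every one listed. The shares set beside each other are thus of unlike units. The GC box was in 23 of the 31, where 45.0% of all 35116 promoters held it, and the CCAAT box in 16 of the 31, where 34.6% did. The cyclic AMP response element was in 4 of the 31 (CSTF3, INTS7, RBBP6 and XRN2), where 1.85% of all promoters held it. The E-box was in 3 of the 31 (INTS6, RBBP6 and XRN2), where 7.26% held it, and the TATA box in none, where 11.5% held it. RBBP6, which rose, and XRN2, which fell, thus both held the response element and the E-box. A match is a description of the letters and not a bound site.

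In the specificity factor, which recognises the poly(A) signal and makes the cut, 2 of 7 genes fell (28.6%) and none rose. The median log2 fold change was -0.59. Of the protein-coding genes tested 31.7% fell and 24% rose, so the share that fell was near that background. WDR33, the subunit that reads the poly(A) signal together with CPSF4, was at 7.76 and 8.05 FPKM without GNE987 and at 1.74 and 1.93 with it. It fell by 2.05 on the log2 scale (SE 0.0946, adjusted P = 0.000313). CPSF2, the inactive partner of the nuclease CPSF3, was at 6.20 and 6.11 FPKM without GNE987 and at 1.62 and 1.32 with it. It fell by 2.00 (SE 0.133, adjusted P = 0.000642), a 4.01-fold difference beside 4.15-fold for WDR33.

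CPSF3, the endonuclease that makes the cut, was at 23.9 and 21.3 FPKM without GNE987 and at 15.7 and 15.3 with it. The log2 fold change of -0.54 (SE 0.0753, adjusted P = 0.00439) was under the fold threshold. FIP1L1, which binds U-rich RNA and poly(A) polymerase, had a log2 fold change of -0.99, just inside the threshold, and was called lower without control replicate 2 (-1.02) or without GNE987 replicate 1 (-1.13). SYMPK, the scaffold protein symplekin, was at -0.59 and CPSF4 at -0.17. With scaling to total reads CPSF3, FIP1L1 and SYMPK were at -1.31, -1.73 and -1.36 and were called lower. CPSF1, the scaffold that was the most abundant of the 37 per length in every library, was at 68.7 and 68.0 FPKM without GNE987 and at 90.9 and 96.2 with it. The log2 fold change of CPSF1 was 0.45 (SE 0.0465, adjusted P = 0.00187) with the deposited scaling and -0.33 with scaling to total reads.

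The cleavage stimulation factor, which binds GU-rich RNA downstream of the cut, had the lowest median of the groups at -2.03. Of its 4 genes 3 fell, beside 31.7% of the protein-coding genes tested. CSTF2, its RNA-binding subunit, was at 24.5 and 23.8 FPKM without GNE987 and at 5.69 and 5.49 with it. It fell by 2.09 on the log2 scale (SE 0.0562, adjusted P = 0.000152), beside the fall of its copy CSTF2T. How the counting treated reads that map to both genes is not given in the sources used here. CSTF1, a subunit with WD repeats, fell by 1.97, with the widest standard error of the 37 genes (0.339), since its GNE987 libraries were at 2.19 and 1.13 FPKM. CSTF3, the scaffold of the factor, was at 6.06 and 6.48 FPKM without GNE987 and at 7.02 and 7.63 with it. Its log2 fold change of 0.22 had an adjusted P value of 0.0717, and it was -0.55 with scaling to total reads.

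Cleavage factor I binds UGUA motifs upstream of the cut and bears on which poly(A) site is used. Beside 31.7% of the protein-coding genes tested, 1 of its 3 genes fell. This was NUDT21, the subunit that binds RNA, at 21.9 and 23.4 FPKM without GNE987 and at 6.37 and 6.41 with it. It fell by 1.81 on the log2 scale (SE 0.0622, adjusted P = 0.000201). NUDT21 overlaps OGFOD1 on the other strand, which was at 10.2 and 11.6 FPKM without GNE987 and at 4.26 and 4.31 with it, and whether the counting used strand is not given in the sources used here. Its larger partners passed neither call. CPSF6 was at 20.51 and 20.18 FPKM without GNE987 and at 19.7 and 18.8 with it. The log2 fold change of CPSF6 was -0.08 (SE 0.0514, adjusted P = 0.233). CPSF7 was at 23.998 and 23.951 FPKM without GNE987 and at 17.3 and 15.1 with it, a log2 fold change of -0.57 (SE 0.0841, adjusted P = 0.00522). With scaling to total reads CPSF7 was at -1.34 and called lower.

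PAPOLA, the main nuclear poly(A) polymerase, was at 13.0 and 13.1 FPKM without GNE987 and at 8.16 and 7.99 with it. PAPOLA had a log2 fold change of -0.68 (SE 0.0544, adjusted P = 0.000969), under the fold threshold. With scaling to total reads PAPOLA was at -1.45 and called lower. Its paralog PAPOLG was low throughout, at 1.57 and 1.66 FPKM without GNE987 and at 0.45 and 0.533 with it. It fell by 1.54 (SE 0.182, adjusted P = 0.00274) on 307 and 313 reads against 32 and 40, and with a pseudocount of 1 the call was lost. PABPN1, which coats the growing tail in the nucleus, had a log2 fold change of -0.18 with an adjusted P value of 0.123.

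The 4 genes of termination and of the polymerase tail divided evenly under the deposited scaling, with 2 higher and 2 lower. The background of protein-coding genes tested was 24% higher and 31.7% lower. Both calls of a rise, those of RBBP6 and SCAF4, were lost with scaling to total reads. XRN2, the exonuclease that degrades the RNA left on the polymerase after the cut, was at 29.0 and 31.1 FPKM without GNE987 and at 10.8 and 11.9 with it. It fell by 1.40 on the log2 scale (SE 0.0773, adjusted P = 0.000435), and its rank among the 37 genes went from 3rd in both control libraries to 15th and 14th. SCAF4 and SCAF8 are paralogs that bind the polymerase tail and together hold back the use of early poly(A) sites. SCAF4 was at 15.2 and 15.5 FPKM without GNE987 and at 45.9 and 48.5 with it. It rose by 1.61 (SE 0.0511, adjusted P = 0.000183), a value that was 0.84 with scaling to total reads and -0.23 with scaling to GAPDH. SCAF8 was at 8.22 and 7.93 FPKM without GNE987 and at 1.94 in both libraries with it. It fell by 2.00 (SE 0.0783, adjusted P = 0.000238), so this pair moved in opposite directions under the deposited scaling.

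**Figure D2:**
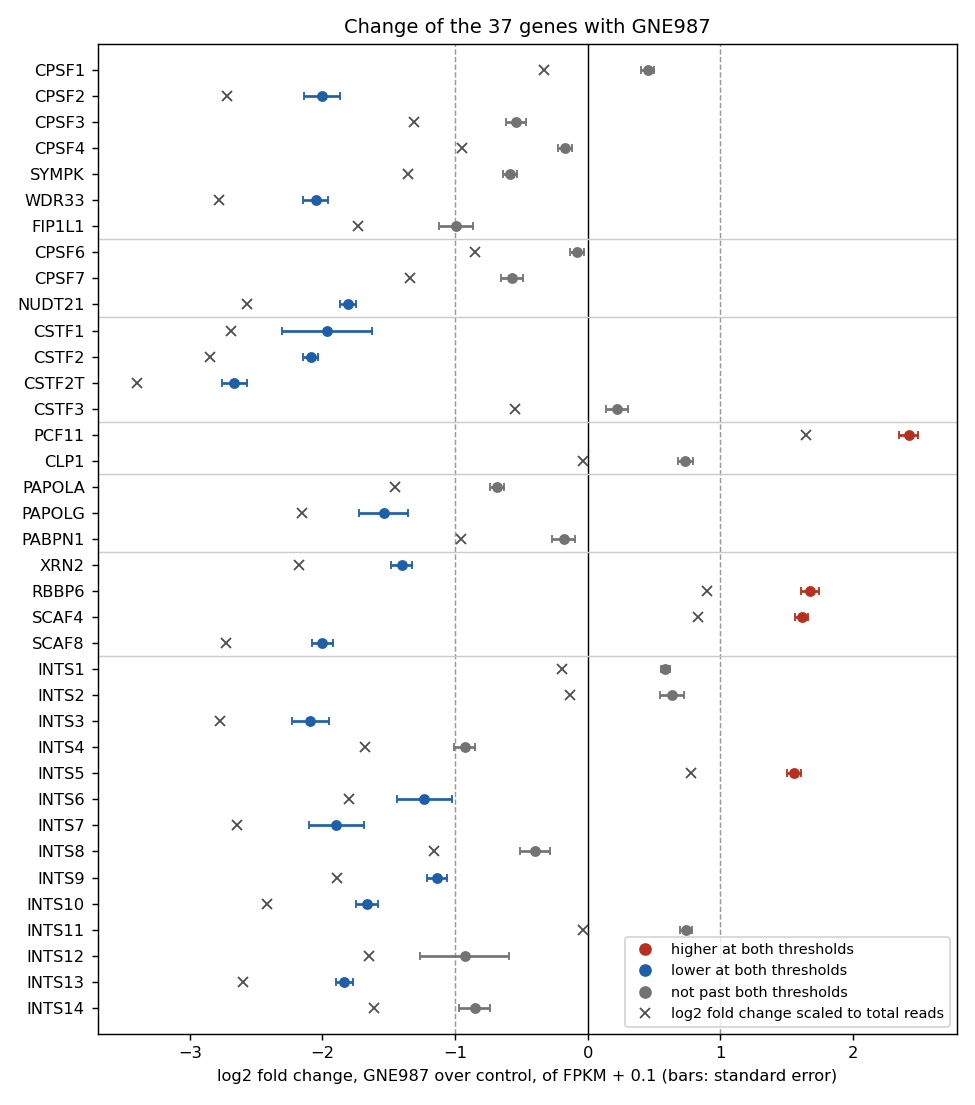
Log2 fold change of FPKM + 0.1, GNE987 over control, for each of the 37 genes from limma under the deposited scaling (circles, with the standard error as bars) and the same change with each library scaled to its total of reads on genes (crosses). Dashed lines stand at -1 and 1; PCF11, RBBP6, SCAF4 and INTS5 lie beyond the right line under the deposited scaling, and of these PCF11 alone lies beyond it with scaling to total reads, where CPSF1, CSTF3, CLP1, INTS1, INTS2 and INTS11 cross to below 0.

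Of the 14 Integrator subunits, 1 rose (7.1%), 6 fell (42.9%) and 7 passed neither call, with a median log2 fold change of -0.93. Of the protein-coding genes tested 24% rose and 31.7% fell, with a median of -0.29. The gene that rose was INTS5, a large core subunit. It was at 17.5 and 16.6 FPKM without GNE987 and at 51.3 and 49.3 with it. The log2 fold change was 1.56 (SE 0.0525, adjusted P = 0.000199). It was 0.78 with scaling to total reads and -0.29 with scaling to GAPDH.

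The largest Integrator fall was that of INTS3, also a subunit of the SOSS complex that binds single-stranded DNA. It was at 4.22 and 4.36 FPKM without GNE987 and at 0.847 and 1.02 with it, and it fell by 2.09 on the log2 scale (SE 0.138, adjusted P = 0.000632). INTS7, a subunit of the backbone, was at 11.0 and 12.7 FPKM without GNE987 and at 3.72 and 2.58 with it. It fell by 1.90 (SE 0.208, adjusted P = 0.00222), and its GNE987 libraries differed more from each other than those of most subunits did. INTS7 overlaps DTL on the other strand, which was at 18.2 and 18.9 FPKM without GNE987 and at 10.4 and 10.9 with it. INTS13, of the arm that INTS10, INTS13 and INTS14 form, was at 27.8 and 26.9 FPKM without GNE987 and at 7.90 and 7.28 with it. It fell by 1.84 (SE 0.0663, adjusted P = 0.000214), and INTS10 beside it fell by 1.66. INTS14, the remaining subunit of that arm, had a log2 fold change of -0.85, under the fold threshold.

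The nuclease of Integrator is INTS11, which works with the inactive paralog INTS9 and with INTS4. INTS11 was at 19.4 and 19.3 FPKM without GNE987 and at 32.0 and 33.1 with it. Its log2 fold change was 0.74 (SE 0.0454, adjusted P = 0.000535) under the deposited scaling and -0.033 with scaling to total reads. INTS9 was at 9.48 and 9.29 FPKM without GNE987 and at 4.07 and 4.37 with it, and it fell by 1.14 (SE 0.073, adjusted P = 0.000595). INTS4 had a log2 fold change of -0.93. The 3 subunits of the cleavage module thus stood at 0.74, -1.14 and -0.93, and both partners of the nuclease were below their control level while the nuclease was above it under that scaling.

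INTS1, the large scaffold, was at 56.2 and 56.1 FPKM without GNE987 and at 83.64 and 84.99 with it. The log2 fold change of INTS1 was 0.59 (SE 0.0369, adjusted P = 0.000572) and -0.19 with scaling to total reads. INTS2, of the backbone, was at 0.64, and at -0.13 with scaling to total reads. INTS8, of the phosphatase module, was at -0.40. INTS6, which binds the phosphatase, was the lowest of the 37 genes at 0.943 and 1.03 FPKM without GNE987 and 0.356 and 0.369 with it, and it fell by 1.23 (SE 0.21, adjusted P = 0.0079). INTS12, a small subunit with a PHD finger, was at 3.15 and 3.35 FPKM without GNE987 and at 1.20 and 2.30 with it. Its log2 fold change of -0.93 had the largest standard error among the subunits (0.337) and an adjusted P value of 0.0675, and it was -1.37 and called lower without GNE987 replicate 2.

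Because shares within a library do not depend on the scaling between libraries, the makeup of the Integrator transcripts was also compared. A sum, unlike a share, does depend on that scaling, and sums were taken under the deposited scaling only. The summed FPKM of the 14 subunits was 190 and 192 in the control libraries and 211 and 212 with GNE987. INTS1 made up 29.5% and 29.2% of that sum in the control libraries and 39.6% and 40.1% with GNE987. INTS5 made up 9.18% and 8.65% without GNE987 and 24.3% and 23.3% with it. INTS11 made up 10.2% and 10.1% without GNE987 and 15.1% and 15.6% with it. These 3 subunits, added up after their values were seen, went from 48.9% and 47.9% of the sum to 79.1% and 79.0%. The share of INTS13 went the other way, from 14.61% and 13.97% to 3.74% and 3.44%. Under the deposited scaling the 23 cleavage, polyadenylation and termination genes summed to 382 and 386 FPKM in the control libraries and to 376 and 378 with GNE987. Within them the share of PCF11 was 2.05% and 2.27% without GNE987 and 12.0% and 11.8% with it. These are shares of RNA per length, not of assembled protein.

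**Figure D3:**
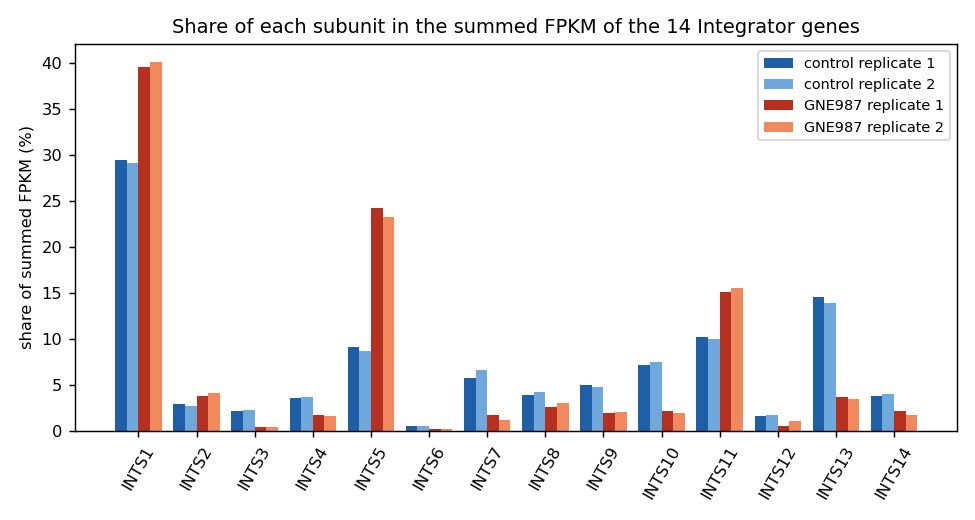
Share of each of the 14 Integrator subunits in their summed FPKM, in percent, with 1 bar for each of the 4 libraries and the axis starting at 0. INTS1, INTS5 and INTS11 take larger shares in both GNE987 libraries (red and orange) than in both control libraries (blue), and INTS13 falls from 14.61% and 13.97% to 3.74% and 3.44%.

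The ratio of paralogs within a library is likewise free of the scaling, and 6 pairs were compared with the exact permutation test on 2 against 2 libraries, two-sided. The smallest P value that this design allows is 0.33, and each of the 6 pairs gave that value, since no pair overlapped between groups. The ratio of SCAF4 to SCAF8 was 1.85 and 1.95 without GNE987 and 23.63 and 24.96 with it. This was the widest shift of the 6, of 3.61 on the log2 scale or 12.2-fold. The ratio of the nuclease CPSF3 to the Integrator nuclease INTS11 was 1.23 and 1.10 without GNE987 and 0.491 and 0.462 with it. CPSF3 was thus above INTS11 per length in both control libraries and below it in both GNE987 libraries, a shift of -1.28 on the log2 scale. For their inactive partners, the ratio of CPSF2 to INTS9 was 0.654 and 0.657 without GNE987 and 0.398 and 0.302 with it. The ratio of PAPOLA to PAPOLG was 8.27 and 7.87 without GNE987 and 18.13 and 14.98 with it. The ratio of CSTF2 to CSTF2T was 1.65 and 1.60 without GNE987 and 2.35 and 2.62 with it, so both fell and CSTF2T fell further. The ratio of CPSF6 to CPSF7 was 0.855 and 0.842 without GNE987 and 1.14 and 1.25 with it, so that their order turned. The shifts of these last 4 pairs were -0.87, 0.85, 0.58 and 0.49 on the log2 scale.

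**Figure D4:**
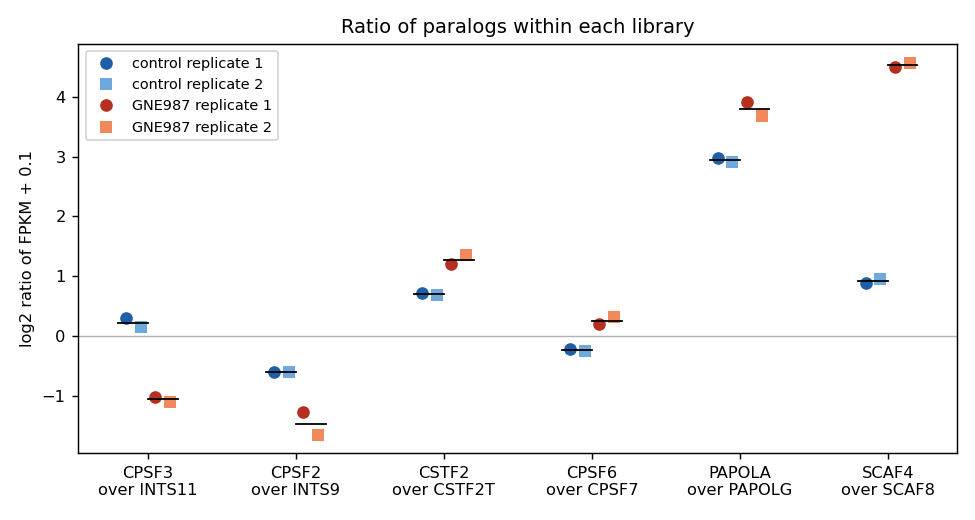
Log2 ratio of FPKM + 0.1 of 6 pairs of paralogs in each library, with control libraries in blue, GNE987 libraries in red and orange and group means as horizontal lines. The ratio of SCAF4 to SCAF8 shifts by 3.61, the most of the 6 pairs, and that of CPSF3 to INTS11 crosses 0 from above.

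The changes were also set beside the length and the level of the genes. Across the 37 genes Spearman's rho of the log2 fold change was -0.23 with the span of the gene, 0.0043 with its exon bases and 0.18 with its control level. Across the 10996 protein-coding genes tested it was -0.18, -0.18 and -0.29. These are descriptions across genes of the same 4 libraries, and genes are not independent replicates. Of the 37 genes, 28 overlap another annotated gene and 15 overlap a protein-coding gene on the other strand, CSTF2T, NUDT21, WDR33, INTS6 and INTS7 among those that fell. CSTF2T lies within PRKG1, which held 0 and 0 reads in the control libraries and 1 and 0 with GNE987.

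Reads just past gene ends were looked at through the neighbouring genes. Within 10 kb past the 3′ ends of 21 of the 37 genes lay 28 annotated genes, and 5 of these were silent, which means at least 300 exon bases and no more than 3 reads in either control library. None of the 5 reached 10 reads in both GNE987 libraries, nor did any of the 4 silent genes among 22 within 10 kb before the 5′ ends. Within 30 kb, 3 of 17 silent genes past the 3′ ends and 1 of 17 before the 5′ ends did. Of 13 silent genes that overlap 1 of the 37, MIR130AHG over CLP1 did so, with 0 and 0 reads in the control libraries and 11 and 14 with GNE987. The share of all silent genes that reached 10 reads in both GNE987 libraries was not counted. IAH1, named after its values were seen, starts 557 bases past the 3′ end of CPSF3. It was at 0.110 and 0.107 FPKM without GNE987 and at 4.23 and 3.55 with it, on 15 and 14 reads against 209 and 185. On the comparison side LBHD1, also named after its values were seen, lies 9515 bases before the 5′ end of INTS5. LBHD1 was at 2.08 and 2.39 FPKM without GNE987 and at 19.5 and 18.5 with it, on 161 and 178 reads against 548 and 548. ANKRD42, 6261 bases past the 3′ end of PCF11, was at 2.03 and 2.10 FPKM without GNE987 and at 2.99 and 3.30 with it, on 314 and 313 reads against 168 and 196. The rise of ANKRD42 is that of the deposited scaling, while its reads were fewer in the less deep GNE987 libraries. Changes of these neighbouring genes under the other scalings are not given here. Counts per gene do not show where in or after a gene the reads lie.

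Of 57 further genes of transcript ends and nuclear RNA decay, all tested, 10 rose (17.5%) and 19 fell (33.3%), with a median log2 fold change of -0.38. Of the protein-coding genes tested 24% rose and 31.7% fell, so the share that fell was near that background. With scaling to total reads 1 of the 57 rose and 32 fell, where 25% and 39.8% of all genes tested did so. The shares of the protein-coding genes alone were not counted under that scaling. PPP1R10, which targets protein phosphatase PP1 to chromatin in the complex that slows the polymerase at gene ends, was at 14.1 and 15.2 FPKM without GNE987 and at 59.2 and 60.4 with it. It rose by 2.02 on the log2 scale (SE 0.0567, adjusted P = 0.000162), the largest rise of the 57. It was at 1.24 with scaling to total reads and at 0.17 with scaling to GAPDH. INIP, a partner of INTS3 in the SOSS complex, rose by 1.75, a value that was 0.98 with scaling to total reads and -0.09 with scaling to GAPDH. SLBP, which binds the stem-loop at the end of histone messenger RNAs, rose by 1.74, from 80.8 and 77.8 FPKM to 266 and 264. This value was 0.96 with scaling to total reads and -0.11 with scaling to GAPDH. LSM10, a subunit of the U7 particle that cuts those same RNAs, fell by 2.67, from 46.6 and 47.1 FPKM to 7.84 and 6.74.

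Among the 17 genes of the nuclear exosome and its cofactors, 9 fell (52.9%) and none rose, with a median log2 fold change of -1.37, beside the 31.7% and 24% of protein-coding genes tested. RBM7, a subunit of the nuclear exosome targeting complex, was at 2.38 and 2.02 FPKM without GNE987 and at 0.228 and 0.244 with it. It fell by 2.77 on the log2 scale (SE 0.198, adjusted P = 0.000752), the largest fall of the 57. EXOSC3, a cap subunit of the exosome, fell by 2.60, from 22.8 and 23.5 FPKM to 3.88 and 3.60. The remaining groups are small, and their counts stand beside the same background. The phosphatase and polymerase tail factors had 1 higher and 6 lower of 14, and the Integrator partners 2 higher and 1 lower of 7. The histone pre-mRNA processing genes had 1 higher and 2 lower of 6. The genes of the cap-binding complex and the restrictor had 2 higher and none lower of 5, and the U1 particle proteins 1 higher and none lower of 3. The noncanonical poly(A) polymerases with the cytoplasmic poly(A)-binding proteins had 3 higher and 1 lower of 5.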

How the data were processed

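RNA-seq libraries were made from total RNA of cells labelled NB4 with the Illumina TruSeq RNA kit. According to the processing notes of the submitters, reads were mapped with HISAT2 2.0.5 and the build is hg38. The authors deposited 1 FPKM value for each gene in each library. The counting program, its use of strand and the annotation are not given in the sources used here. Genes were named and placed with GENCODE release 44 on GRCh38, and promoters came from RefSeq (GRCh38.p14). The members and gene lists were chosen with earlier results of these data known. Groups and replicate numbers came from the labels.

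The limma package was run on log2(FPKM + 0.1) of the 16668 genes averaging 0.5 FPKM or more, version 3.58.1 under R 4.3.3 (empirical Bayes with an intensity trend, no block, two-sided). Calls needed a P value under 0.05 before adjustment and a change of more than 2-fold in either direction, the thresholds of the study. P values were adjusted with Benjamini-Hochberg over all genes tested. Reads per gene were recovered from the FPKM steps, counting a value within 0.01 of a whole number as whole. Of 32895 genes above 0, 17431 gave whole reads at the GENCODE exon length, 15389 at another length and 75 at none. The reads gave the depth and 2 alternatives. The genes described in full were the 3 largest called changes in each direction among the 23 cleavage and termination genes and among the 14 Integrator subunits, the nucleases, PCF11, XRN2, 6 paralog pairs, and the 3 largest called changes in each direction of the 57 further genes. Of the reference genes in this rule, only GAPDH is reported here. The alternatives were other scalings, pseudocounts, filters, thresholds, a replicate block, limma-voom and leaving out each library. The steps were tested on simulated data.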

Additional observations from a re-analysis of the deposited data

How the results depend on the processing

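With each library left out in turn, with the replicate block, with an adjusted P value and without a filter, 4 genes rose and 15 to 16 fell. Median-ratio scaling gave 1 factor of 1.00795 for all 4 libraries, so it changed nothing and tests nothing. The replicate block gave 4 and 15 and changed no call, and deviations of same-numbered libraries had a correlation of 0.00537, so they share only a number. A pseudocount of 1 gave 4 and 12 (PAPOLG, INTS6 and INTS9 lost their calls), a pseudocount of 0.01 gave 4 and 16, quantile normalization 4 and 16, and a mean of at least 1 FPKM 4 and 14. Scaling to total reads and limma-voom on recovered reads each gave 1 and 24, and scaling to GAPDH 0 and 33. The 9 further falls with total reads were CPSF3, CPSF7, SYMPK, FIP1L1, PAPOLA, INTS4, INTS8, INTS12 and INTS14. The median log2 fold change of the 37 genes, -0.85, was -1.65 with limma-voom, -1.61 with total reads, -2.49 with GAPDH, -0.77 with the 1 FPKM filter and -0.63 with a pseudocount of 1, and ranged from -0.90 to -0.70 without 1 library. The median of all genes tested was -0.57, -0.56 and -1.53 with limma-voom, total reads and GAPDH. Of the 57 further genes, 5 rose with quantile normalization, 1 rose and 32 fell with total reads, and 0 rose and 45 fell with GAPDH. The 30 kb window gave 3 risen genes past the 3′ ends in place of 0, and 1 before the 5′ ends in place of 0.

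Directions turned for CPSF1 (-0.33 with limma-voom and with total reads, -0.34 with quantile normalization, -1.40 with GAPDH), CSTF3 (-0.55, -0.55 and -1.58 with limma-voom, total reads and GAPDH), CLP1 (-0.038, -0.038 and -1.10), INTS2 (-0.13, -0.13 and -1.17) and INTS11 (-0.032, -0.033 and -1.10). INTS1 was at -0.19 with limma-voom and with total reads, -0.14 with quantile normalization and -1.26 with GAPDH. RBBP6, SCAF4 and INTS5 turned with GAPDH alone, to -0.16, -0.23 and -0.29. The construction of these scalings shifts every gene of a library by 1 factor, except for quantile normalization, where the cause was not tested. All 6 paralog ratios kept their direction under every pseudocount tried. Leaving out a library could not turn them, since no pair overlapped between groups, so that step tests nothing. With fewer reads in the GNE987 libraries, PAPOLG, INTS12 and CSTF1 rest on the fewest reads of the 37, as low as 32, 39 and 48 in 1 library.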
